A study of Mus musculus with 12 samples.

Results

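Levels of 9 genes of the Notch pathway were followed through dendritic cell (DC) development in mice: the receptors Notch1, Notch2, Notch3 and Notch4, the receptor-modifying enzyme Lfng, the receptor-cutting protease Adam10, the DNA-binding factor Rbpj, its coactivator Maml1 and the target gene Hes1. They were taken by name and not by a threshold on their levels, but with earlier results of these data known. All 9 were among the 22184 genes measured. Counts among them, set beside the share of all genes, therefore describe the set and do not test it. Each gene is represented by its probe set with the highest mean over the arrays, and each value is the deposited log2 expression level, on which a difference of 1 is a doubling of signal. RNA of 5 sorted populations was hybridised to 12 microarrays, with 3 arrays of common DC progenitors (CDP), 2 of pre-CD8, 2 of pre-CD4, 3 of CD24 DC and 2 of CD172a DC.

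All 5 populations came from C57Bl/6 mice at steady state that carried a GFP reporter at 1 allele of Zbtb46 (Zbtb46GFP/+), so no group lacked the reporter allele. Cells were pooled from 8 to 10 littermates, per the series text, and sorted to a purity above 95%. The animals' age is not given in the labels. CDP, pre-CD8 and pre-CD4 were sorted from bone marrow released with mortar and pestle. CD24 DC and CD172a DC, the mature populations, were handled as splenocytes, which were released with collagenase B and DNAse1. The CDP gate took lineage-negative marrow cells with intermediate CD117 that bore CD135 and CD115 and lacked CD11c and MHC II. The pre-CD8 gate took lineage-negative CD135+ cells with intermediate CD117, CD11c and intermediate MHC II but no Siglec H, and the pre-CD4 gate lineage-negative CD135+ cells with low CD117, with CD115 and CD11c and without MHC II. CD24 DC were CD11c+ CD24+ cells without CD172a, which the label also calls MHC II negative, and CD172a DC were CD11c+ cells with MHC II and CD172a. Marrow and spleen, their preparation, and the stage of the cells changed together and cannot be told apart. In sorted bulk RNA, fewer cells with a transcript and less transcript per cell cannot be told apart either.

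Notch receptors are surface proteins that are cut when a ligand of the Delta or Jagged family on a neighbouring cell binds them. ADAM10 makes the outer cut and gamma-secretase the cut within the membrane, and the freed intracellular domain then joins RBPJ and a Mastermind protein, such as MAML1, on DNA. RBPJ without that domain holds corepressors at the same sites. In the mouse spleen, signalling through Notch2 and Rbpj in DCs is known to be required for the ESAM-positive CD172a DCs.

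RBPJ binds the core letters TGGGAA. They were searched on both strands in the 250 bases before each start site, from RefSeq promoter windows of the mouse build GRCm38.p6, which matched 8 of the 9 genes, all but Hes1. The core was found in Lfng and Rbpj, and in 21.6% of all 32851 windows (7094). Both windows are shown because they are the 2 among these genes that hold the core, here in capitals as TGGGAA or, where it is read on the opposite strand, TTCCCA.

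Lfng, chr5:140607091-140607340, plus strand: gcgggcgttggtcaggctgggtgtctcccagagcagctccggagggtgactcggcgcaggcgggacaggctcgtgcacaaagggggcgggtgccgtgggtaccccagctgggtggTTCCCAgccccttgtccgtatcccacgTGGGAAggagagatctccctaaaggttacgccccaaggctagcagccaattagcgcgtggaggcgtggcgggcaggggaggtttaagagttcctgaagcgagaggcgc

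Rbpj, chr5:53590096-53590345, plus strand: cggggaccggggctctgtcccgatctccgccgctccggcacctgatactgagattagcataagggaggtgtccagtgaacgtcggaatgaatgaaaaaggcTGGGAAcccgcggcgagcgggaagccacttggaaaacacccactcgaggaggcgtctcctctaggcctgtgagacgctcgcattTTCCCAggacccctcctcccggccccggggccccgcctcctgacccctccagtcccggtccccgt

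In Lfng the opposite-strand core lay 135 to 130 bases before the start and the other core 108 to 103 bases before it. The core nearer the start extended to CGTGGGAA, a longer form found in 0.636% of windows (209), and overlapped CACGTG, the letters bound by many basic helix-loop-helix factors, which 6.02% of windows held (1978). In Rbpj the cores lay 149 to 144 and, on the opposite strand, 65 to 60 bases before the start. These matches describe the letters of the windows and do not show binding.

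The means of the lineage marker lists followed the labels, though not every gene in them did. Progenitor genes (Kit, Cd34, Csf1r, Mpo and Sox4) averaged 9.84 to 10.02 per array in CDP, against 6.09 to 7.71 in the other populations. Within that list Kit went the other way, with means of 9.04 in pre-CD8, 9.71 in CD24 DC and 9.70 in CD172a DC, against 8.24 in CDP. Genes of the CD8-type lineage (Irf8, Batf3, Id2, Xcr1, Tlr3 and Cd24a) averaged 9.96 to 10.75 in pre-CD8 and CD24 DC, against 6.79 to 8.28 elsewhere. Of these, Irf8 averaged 12.14 in pre-CD8 and 11.90 in CD24 DC, against 11.99 in pre-CD4 and 11.49 in CDP, and Cd24a 12.13 and 11.61, against 10.89 and 11.30, so neither set the CD8-type populations apart from pre-CD4 and CDP as the others did. Genes of the CD172a lineage (Irf4, Sirpa, Klf4, Itgam and S100a4) averaged 8.46 to 9.30 in pre-CD4 and CD172a DC, against 6.17 to 7.54 elsewhere. Of these, S100a4 was also at 10.10 and Klf4 at 8.34 in pre-CD8. Sirpa, which encodes CD172a, averaged 8.12 in CDP, against 8.23 in pre-CD4. The pre-CD8 arrays of Itgam (6.40 and 7.44) overlapped with those of pre-CD4 (7.13 and 8.56). Array means ran from 5.28 to 5.34 and array medians from 4.89 to 5.24. Interquartile ranges were 2.67 to 2.86 in CDP, 2.48 and 2.70 in pre-CD8 and 2.60 and 2.74 in pre-CD4. They were narrower in the spleen arrays, at 2.10 to 2.59 in CD24 DC and 2.17 and 2.35 in CD172a DC, with some overlap. Neutrophil genes differed between arrays of the same population, with means of 7.27 and 10.93 in the 2 pre-CD8 arrays, and 6.97 to 9.66 in CDP, 6.89 to 7.71 in pre-CD4, 4.99 to 7.77 in CD24 DC and 4.88 to 8.16 in CD172a DC. Genes of plasmacytoid DCs (Siglech, Bst2, Ly6d, Tcf4 and Ccr9) averaged 7.80 to 8.35 in pre-CD4 and 6.21 to 6.91 in the other populations. Within that list Ccr9 was lowest in pre-CD4, with a mean of 4.52, against 4.60 in CDP and up to 6.03 in CD24 DC. Genes shared by conventional DCs (Zbtb46, Flt3, Itgax and H2-Ab1, which encodes an MHC II chain) averaged 9.59 to 10.01 in CD24 DC and 9.18 to 9.58 in CD172a DC, against 6.74 to 6.87 in CDP. Flt3 did not follow that separation, with means of 9.52 in CDP, 10.11 in CD24 DC and 9.25 in CD172a DC. H2-Ab1 itself measured 12.06 to 12.35 in CD24 DC, which goes against the MHC II negative label, and 8.17 and 10.20 in pre-CD4, against 6.41 to 6.70 in CDP. The 6 measured B cell genes averaged 5.13 to 5.23 in the spleen populations and 4.67 to 4.88 in the marrow populations. Among them Ms4a1 stood at 7.94 to 8.42 in CD24 DC and 6.31 to 7.03 in CD172a DC, against 4.04 to 4.70 in marrow. Cd79b went the other way, averaging 5.46 in CD24 DC and 6.59 in CD172a DC, against 6.66 to 7.57 by marrow population. Cd79a, Cr2 and Pax5 stayed between 3.61 and 5.60 in every array. The 6 monocyte and macrophage genes averaged 6.34 to 6.44 in CD172a DC and 5.72 to 6.06 in CD24 DC, against 7.04 to 7.23 in pre-CD4, 6.32 to 6.88 in pre-CD8 and at least 6.61 in CDP. The 3 measured T cell genes averaged 3.93 to 4.63 per array.

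As a rough guide to background, 17 genes of other tissues, such as Alb of liver and Ttr, averaged 3.53 to 6.68 over the 12 arrays. Their median was 4.60. The upper end of that span was Tnni3, which itself varied among the populations (moderated F test in limma, adjusted p = 0.0499). Without Tnni3, no population mean of these genes was above 5.85 (Tnnt2 in CD24 DC). No detection calls were used and probe sets differ in background, so a value in that span need not be a detected transcript. Every population mean of Notch3, Maml1 and Hes1 lay inside that span. So did those of Notch1 in pre-CD8, CD24 DC and CD172a DC and of Notch4 outside CD24 DC. Differences and folds of Notch1 and Notch4 that involve those populations may therefore be understated. The same 17 genes shifted by a median of 0.27 in CD24 DC against CDP and by 0.27 in CD172a DC against CDP, and 2 and 1 of them passed the test there.

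In all, 7 of the 9 genes varied among the 5 populations by a moderated F test in limma (adjusted p under 0.05 over all genes), a test that 23.9% of all genes passed (5312 of 22184). They were Notch1, Notch2, Notch4, Lfng, Adam10, Rbpj and Hes1. Notch3 and Maml1 did not pass. Rbpj has a second probe set, given below, with which it did not pass either. Of 62 other pathway genes, 19 passed the same test. The 7 became 5 without CDP array 2, without CDP array 3 or without the 5 arrays numbered 1. Where arrays are said below not to overlap, such separation was common with 2 or 3 arrays per population. By pair, it held for 27% (CD24 DC against CD172a DC) to 60.5% (CD172a DC against pre-CD4) of all genes. The share for a population apart from all the others was not counted.

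**Figure D1:**
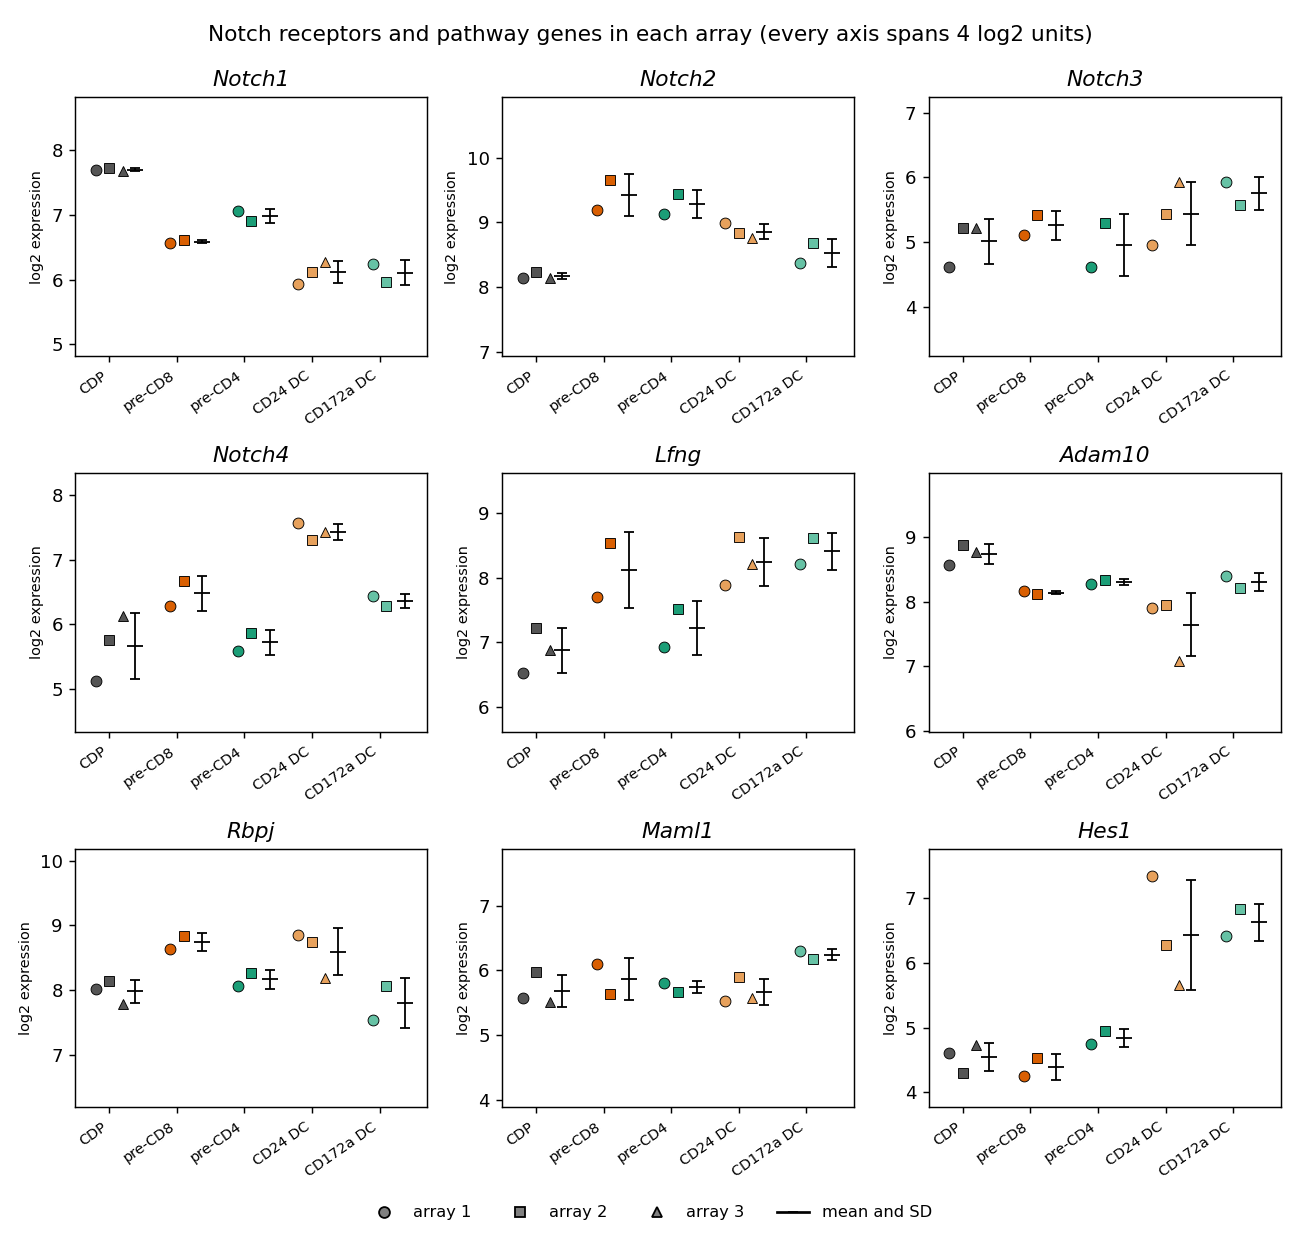
Each panel plots 1 gene, with log2 expression on the vertical axis (every axis spans 4 log2 units, with a start of its own) and the 5 populations on the horizontal axis. Points are single arrays and the horizontal bar with whiskers gives the mean and SD of the 3 CDP, 2 pre-CD8, 2 pre-CD4, 3 CD24 DC and 2 CD172a DC arrays; Notch1 was highest in CDP at 7.70, Notch2 highest in pre-CD8 at 9.42, and Hes1 was at 5.66 or above in the spleen arrays only.

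Notch1, the receptor needed for T cell commitment, was highest in the earliest population and lowest in the mature DCs. It measured 7.70, 7.73 and 7.68 in CDP, 6.57 and 6.61 in pre-CD8, and 7.06 and 6.91 in pre-CD4. In the spleen it measured 5.94, 6.12 and 6.28 in CD24 DC and 6.25 and 5.97 in CD172a DC. No array of any other population reached the CDP arrays, and the 2 spleen populations overlapped. The means were 7.70 ± 0.02 in CDP (SD, n = 3), 6.59 ± 0.03 in pre-CD8 (n = 2), 6.98 ± 0.11 in pre-CD4 (n = 2), 6.12 ± 0.17 in CD24 DC (n = 3) and 6.11 ± 0.20 in CD172a DC (n = 2). Only the step from CDP to pre-CD4, next in the order, passed the test among neighbours (adjusted p = 0.0427). Pre-CD4 and pre-CD8 (adjusted p = 0.997), pre-CD8 and CD24 DC (adjusted p = 0.187), and the 2 mature populations (adjusted p = 0.999) did not differ beyond their spread.

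Notch2, the receptor known to act in splenic DCs, had the reverse relation to CDP. Its values were 8.14, 8.23 and 8.14 in CDP, 9.19 and 9.65 in pre-CD8, and 9.13 and 9.43 in pre-CD4. In CD24 DC they were 8.98, 8.83 and 8.75, and in CD172a DC 8.37 and 8.68. All 9 later arrays lay above the 3 CDP arrays, with both precursor populations on top. Mean levels were 8.17 ± 0.05 in CDP (SD, n = 3), 9.42 ± 0.32 in pre-CD8 (n = 2), 9.28 ± 0.21 in pre-CD4 (n = 2), 8.85 ± 0.12 in CD24 DC (n = 3) and 8.53 ± 0.22 in CD172a DC (n = 2). From high to low the order was pre-CD8, pre-CD4, CD24 DC, CD172a DC and CDP, and no neighbouring pair in it passed the test (adjusted p 0.231 to 1). Which of the 2 precursor populations stood on top changed without pre-CD8 array 2 or pre-CD4 array 1.

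Notch4, a receptor best known from endothelium, was highest in CD24 DC. It measured 5.12, 5.76 and 6.13 in CDP, 6.29 and 6.67 in pre-CD8, and 5.58 and 5.86 in pre-CD4. CD24 DC had 7.56, 7.31 and 7.42 and CD172a DC had 6.43 and 6.28. The 3 CD24 DC arrays stood above all 9 others. Means were 5.67 ± 0.51 in CDP (SD, n = 3), 6.48 ± 0.27 in pre-CD8 (n = 2), 5.72 ± 0.20 in pre-CD4 (n = 2), 7.43 ± 0.13 in CD24 DC (n = 3) and 6.36 ± 0.11 in CD172a DC (n = 2). The step from CD24 DC down to pre-CD8, its neighbour in the order, was 0.95 and just missed the threshold (adjusted p = 0.0515), and the lower neighbours were not separated.

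Notch3, the fourth receptor, did not vary by the F test (adjusted p = 0.291). Its values ran from 4.61 to 5.21 in CDP, with 5.10 and 5.41 in pre-CD8, 4.61 and 5.29 in pre-CD4, 4.95 to 5.93 in CD24 DC, and 5.93 and 5.57 in CD172a DC.

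Lfng encodes Lunatic fringe, a glycosyltransferase of the Golgi that extends sugars on Notch and so alters which ligands a receptor answers to. Its values were 6.53, 7.23 and 6.88 in CDP, 7.71 and 8.54 in pre-CD8, and 6.93 and 7.52 in pre-CD4. CD24 DC had 7.89, 8.63 and 8.21 and CD172a DC had 8.21 and 8.61. The CDP and pre-CD4 arrays overlapped with each other and lay below all arrays of the 3 other populations. Means were 6.88 ± 0.35 in CDP (SD, n = 3), 8.12 ± 0.58 in pre-CD8 (n = 2), 7.22 ± 0.41 in pre-CD4 (n = 2), 8.24 ± 0.37 in CD24 DC (n = 3) and 8.41 ± 0.28 in CD172a DC (n = 2). No neighbouring pair in that order passed the test (adjusted p 0.627 to 0.904).

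Adam10, the protease of the outer cut, was highest in CDP and lowest in CD24 DC. It measured 8.57, 8.88 and 8.77 in CDP, 8.16 and 8.12 in pre-CD8, and 8.27 and 8.33 in pre-CD4. CD24 DC had 7.90, 7.95 and 7.08 and CD172a DC had 8.40 and 8.21. The CDP arrays were above, and the CD24 DC arrays below, those of every other population. The means were 8.74 ± 0.15 in CDP (SD, n = 3), 8.14 ± 0.03 in pre-CD8 (n = 2), 8.30 ± 0.04 in pre-CD4 (n = 2), 7.64 ± 0.49 in CD24 DC (n = 3) and 8.30 ± 0.13 in CD172a DC (n = 2), and neighbours in the order did not differ beyond their spread (adjusted p 0.232 to 1).

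Rbpj, the DNA-binding factor through which all 4 receptors act, changed less. The higher of its 2 probe sets gave 8.02, 8.14 and 7.79 in CDP, 8.64 and 8.84 in pre-CD8, and 8.06 and 8.27 in pre-CD4. It gave 8.85, 8.75 and 8.18 in CD24 DC and 7.53 and 8.07 in CD172a DC. Both pre-CD8 arrays and 2 of the 3 CD24 DC arrays stood above every array of the other populations. Means were 7.98 ± 0.18 in CDP (SD, n = 3), 8.74 ± 0.14 in pre-CD8 (n = 2), 8.17 ± 0.15 in pre-CD4 (n = 2), 8.59 ± 0.36 in CD24 DC (n = 3) and 7.80 ± 0.38 in CD172a DC (n = 2), with an F test just under the threshold (adjusted p = 0.0466). Neighbours in the order were not separated (adjusted p 0.327 to 0.859).

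Which locus this Rbpj probe set reads is uncertain. In the platform's order of probe sets its 10 nearest named neighbours were all genes of chromosome 6, where a processed copy, Rbpj-ps3, is annotated, whereas Rbpj itself is on chromosome 5. The neighbours of the other probe set were all on chromosome 5. That other probe set gave 4.52, 5.23 and 4.69 in CDP, 5.77 and 5.48 in pre-CD8, and 5.26 and 4.81 in pre-CD4. In CD24 DC it gave 5.09, 5.68 and 5.70, and in CD172a DC 5.34 and 5.11. It was again highest in pre-CD8 and lower in CDP and pre-CD4, but CD172a DC was not its lowest population, and with it Rbpj no longer passed the F test. The 2 Rbpj results are therefore given as those of a probe set and not of a single locus.

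**Figure D2:**
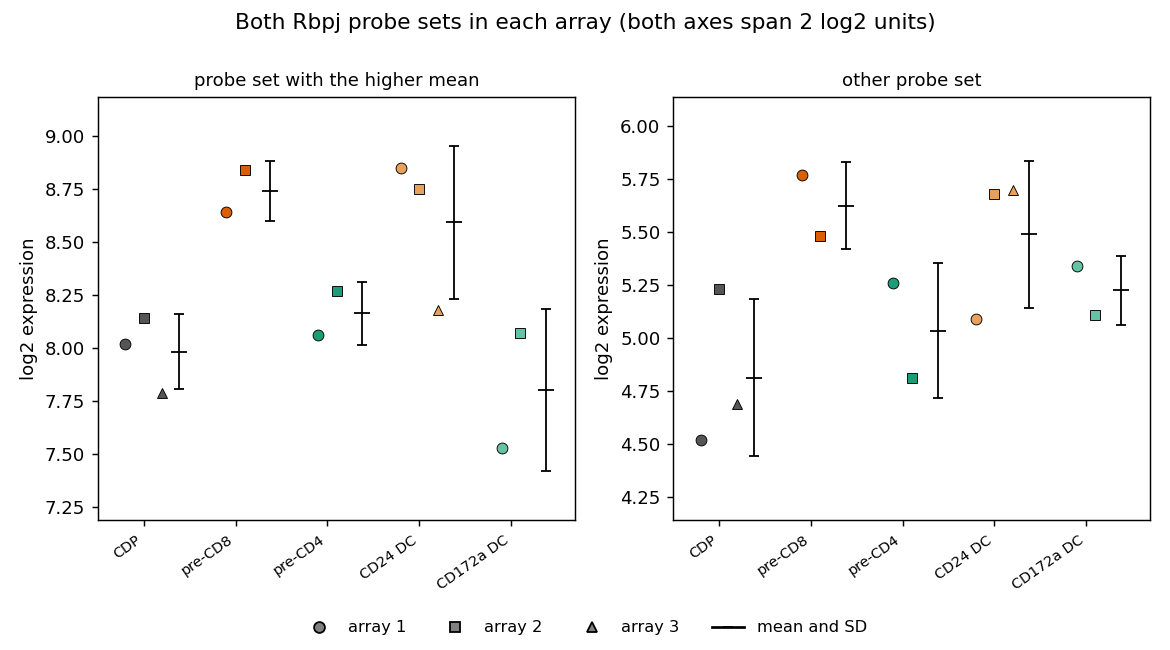
Both panels plot log2 expression of Rbpj (vertical axis, spanning 2 log2 units in each) in the 5 populations (horizontal axis), for the probe set used here on the left and the other on the right. Points are arrays and bars the mean and SD; pre-CD8 arrays were at 8.64 and 8.84 on the left and at 5.77 and 5.48 on the right, and CD172a DC was lowest at 7.80 on average only on the left.

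Maml1, a Mastermind coactivator that joins the Notch and RBPJ complex, did not vary by the F test (adjusted p = 0.275). Its 7 marrow values and 3 CD24 DC values lay between 5.51 and 6.09, and CD172a DC had 6.30 and 6.18.

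Hes1, a repressor gene that is a classical direct target of Notch and also answers to other signals, separated marrow from spleen. It measured 4.61, 4.30 and 4.73 in CDP, 4.25 and 4.53 in pre-CD8, and 4.74 and 4.94 in pre-CD4. CD24 DC had 7.34, 6.28 and 5.66 and CD172a DC had 6.42 and 6.83. No marrow array reached the lowest spleen array, and the spread was widest among the CD24 DC arrays. Mean levels were 4.55 ± 0.22 in CDP (SD, n = 3), 4.39 ± 0.20 in pre-CD8 (n = 2), 4.84 ± 0.15 in pre-CD4 (n = 2), 6.43 ± 0.85 in CD24 DC (n = 3) and 6.62 ± 0.29 in CD172a DC (n = 2). The step between CD24 DC and pre-CD4 was the one that passed the test in this order (1.59 ± 0.37, adjusted p = 0.0112), and was lost without either pre-CD4 array (adjusted p 0.112 without array 1 and 0.0529 without array 2). No difference among the marrow populations passed for Hes1 (adjusted p 0.844 to 1), nor that between the spleen populations (adjusted p = 0.897). Because its marrow values were not shown to be above background, its differences between spleen and marrow may be understated, and no fold is given for them.

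The first comparison asked how the genes change when a CDP becomes a precursor of either lineage. In pre-CD8 against CDP, Notch2 and Lfng rose and Notch1 fell, 3 of 9 genes beside 4.76% of all genes. Notch1 fell by 1.11 ± 0.19 (SE) on the log2 scale, 2.16-fold (adjusted p = 0.00294), a call lost only without the 5 arrays numbered 1 (-1.10). Notch2 was 1.24 ± 0.21 higher, 2.37-fold (adjusted p = 0.0027), and Lfng 1.24 ± 0.31 higher (adjusted p = 0.0369). Notch4 (0.81, interval 0.24 to 1.39, adjusted p = 0.116) and Rbpj (0.75, interval 0.22 to 1.28, adjusted p = 0.116) did not pass. The call of Notch2 was lost without pre-CD8 array 2 (1.01, adjusted p = 0.0588), the array with the higher neutrophil genes. That of Lfng was lost without pre-CD8 array 2 (0.83, 0.364), CDP array 1 (1.07, 0.137), CDP array 3 (1.24, 0.102) or either CD172a DC array (1.24, 0.0503), each value followed by its adjusted p. The part of neutrophil RNA in these differences was not tested.

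In pre-CD4 against CDP the receptor change had the same signs, with 2 of 9 genes called beside 4.54% of all genes. Notch2 was 1.11 ± 0.21 higher, 2.15-fold (adjusted p = 0.00651), and Notch1 fell by 0.72 ± 0.19, 1.65-fold (adjusted p = 0.0427). Lfng differed by 0.34 (interval -0.33 to 1.02, adjusted p = 0.749) and Notch4 by 0.05 (interval -0.52 to 0.62). The Notch2 call was lost without pre-CD4 array 2 (0.96, adjusted p = 0.121). The Notch1 call was lost in 12 of 20 settings, among them without any 1 of the CDP arrays (adjusted p 0.114 to 0.13), pre-CD4 array 1 (0.156) or 2 (0.302), either pre-CD8 array (0.0602) or CD24 DC array 2 (0.0616), with values of -0.80 to -0.64. Because both precursor comparisons share the CDP arrays, their common signs are not independent.

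Set directly against each other, the 2 precursors did not differ in any of the 9 genes by limma, in a comparison in which 0.703% of all genes were called. Of the 9, 2 had an unadjusted p under 0.05, and no alternative setting gave a call. Lfng was 0.90 higher in pre-CD8 (interval 0.16 to 1.64, adjusted p = 0.627) and Notch4 0.76 higher (interval 0.13 to 1.39, adjusted p = 0.631). For Notch2 the difference was 0.14 with an interval of -0.35 to 0.62.

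Between the mature populations, Notch4 was the 1 gene called among 9, beside 5.59% of all genes. It was 1.07 ± 0.27 higher in CD24 DC than in CD172a DC, 2.11-fold (adjusted p = 0.0302). Rbpj was 0.79 higher in CD24 DC without passing (interval 0.26 to 1.32, adjusted p = 0.0863), and passed without CD24 DC array 3 (1.00, adjusted p = 0.0215). With its other probe set the 2 populations overlapped, at 5.09, 5.68 and 5.70 in CD24 DC and 5.34 and 5.11 in CD172a DC. Over 21 settings the Rbpj difference ran from 0.27 to 1.06 (highest adjusted p 0.756). Adam10 was 0.66 lower in CD24 DC without passing (interval -1.20 to -0.12, adjusted p = 0.18). Notch1, Notch2, Lfng and Hes1 differed by 0.32 or less, with intervals that reached at most 0.99 from zero. The Notch4 call was lost without CD172a DC array 1 (1.15, adjusted p = 0.147) or 2 (1.00, adjusted p = 0.177), or CD24 DC array 1 (1.01, 0.0757), 2 (1.13, 0.0561) or 3 (1.08, 0.0511), while the difference itself stayed between 0.96 and 1.15 in every setting.

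**Figure D3:**
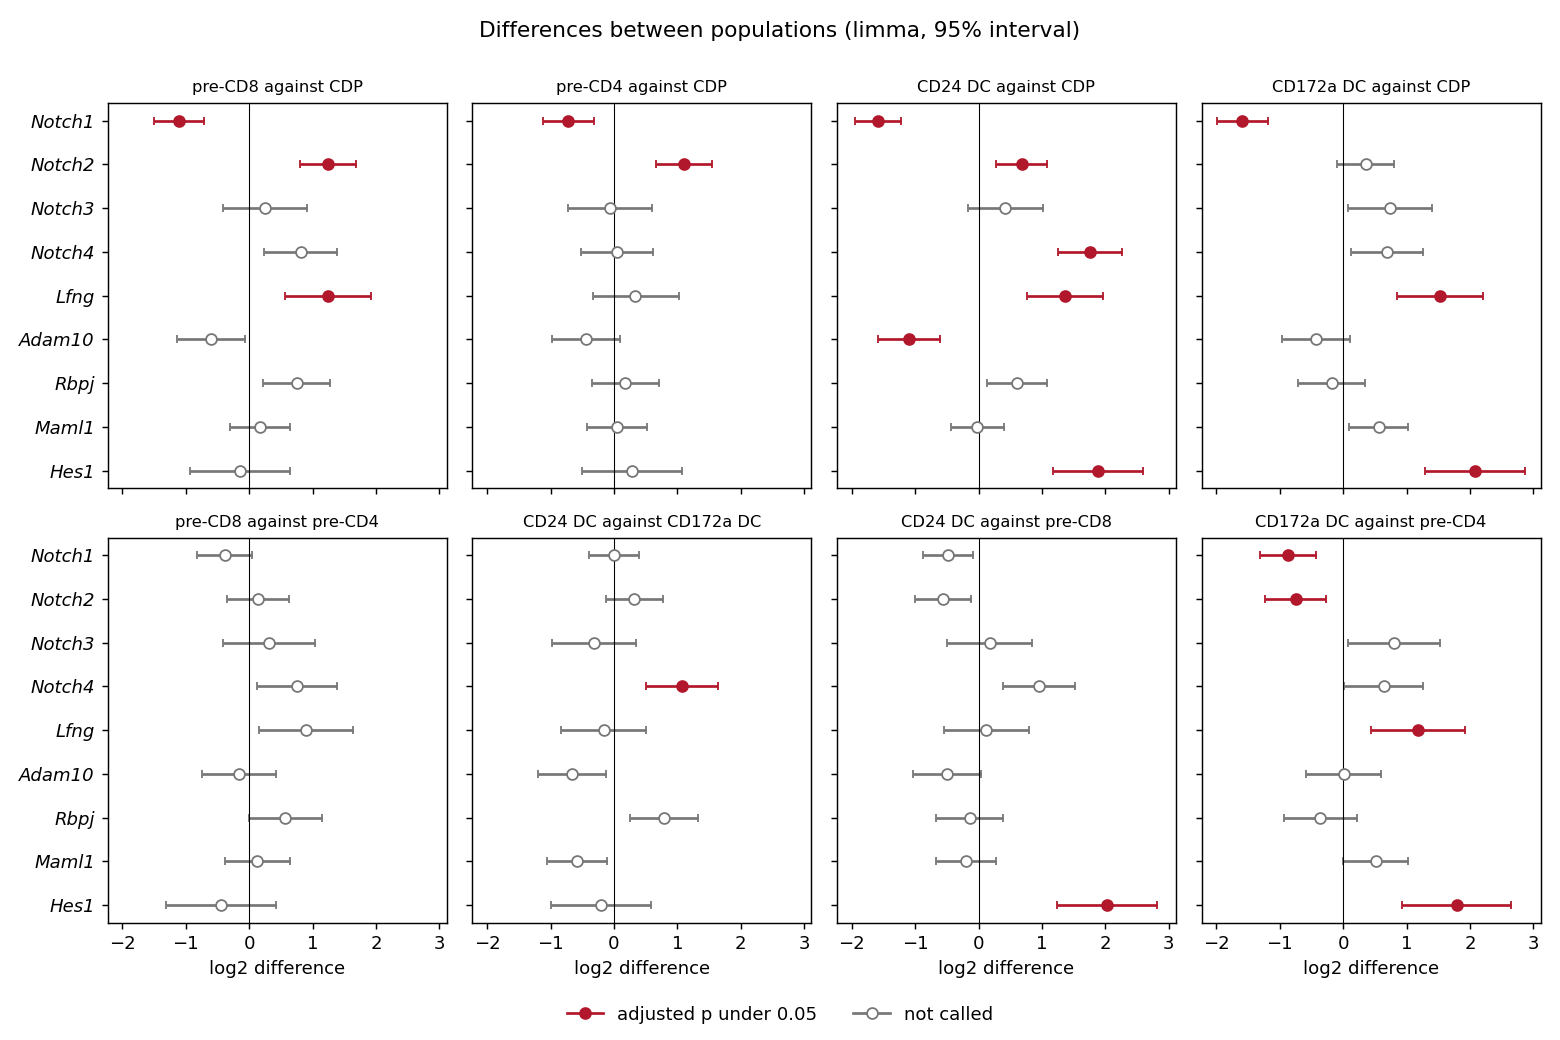
Each panel gives the log2 difference of the 9 genes (horizontal axis) in 1 comparison, with the point at the estimate and the bar its 95% interval from limma. Filled red points passed an adjusted p under 0.05 over all genes; Hes1 was 1.79 to 2.08 higher in every comparison of a spleen population with CDP or its own precursor, and no gene passed in pre-CD8 against pre-CD4.

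The step from precursor to mature DC was then compared within each lineage. In CD24 DC against pre-CD8, Hes1 was the 1 of 9 genes called, beside 6.31% of all genes. Hes1 was 2.03 ± 0.37 higher (adjusted p = 0.00362). Notch4 was 0.95 higher (adjusted p = 0.0515), a difference that passed without CDP array 1 (adjusted p = 0.0187) or CDP array 3 (adjusted p = 0.0374). The Hes1 call was lost without pre-CD8 array 1 (1.89, adjusted p = 0.0596) and without the 5 arrays numbered 1 (1.44, adjusted p = 0.0589).

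In CD172a DC against pre-CD4, 4 of 9 genes were called, beside 12.7% of all genes. Hes1 was 1.79 ± 0.40 higher (adjusted p = 0.00969), and Lfng 1.18 ± 0.34 higher, 2.27-fold (adjusted p = 0.0375). Notch1 fell by 0.87 ± 0.20 (adjusted p = 0.0122) and Notch2 by 0.75 ± 0.22 (adjusted p = 0.0436). Genes of macrophages moved in the same comparison: Adgre1 measured 9.20 and 9.42 in CD172a DC, against 5.50 and 5.60 in pre-CD4, and Vcam1 7.20 and 7.11, against 4.67 and 4.85. Others of that list did not follow them, with Mertk at 4.94 and 5.12 in CD172a DC, against 4.64 and 4.30 in pre-CD4, and Ly6c2 and Ccr2 averaging 4.32 and 6.93 in CD172a DC, against 11.57 and 10.53 in pre-CD4. The part of such cells in the 4 differences was not tested. Without CD172a DC array 2 or without pre-CD4 array 1, none of the 4 passed (Hes1 1.58 and 1.68, adjusted p 0.076 and 0.0848). The Lfng call was also lost without CD172a DC array 1 (1.38, adjusted p = 0.0864) or CDP array 3 (1.18, adjusted p = 0.0558). The Notch2 call was lost in 12 of 20 settings, among them without CD172a DC array 1 (-0.59, adjusted p = 0.287), pre-CD4 array 2 (-0.60, adjusted p = 0.208), CD24 DC array 2 (0.0595) or any CDP array (0.0582 to 0.0697).

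Whether the difference between lineages changed from precursor to mature cell was tested as an interaction. None of the 9 genes passed, in a test that 1.03% of all genes passed, and 2 had an unadjusted p under 0.05, with no call in any alternative setting. Lfng gave -1.06 ± 0.46 (interval -2.06 to -0.06, adjusted p = 0.467), from a difference of -0.16 between CD24 DC and CD172a DC and of 0.90 between pre-CD8 and pre-CD4. Maml1 gave -0.70 (interval -1.40 to -0.01, adjusted p = 0.509). A rise of Lfng that passed in CD172a DC against pre-CD4 and not in CD24 DC against pre-CD8 was thus not shown to differ between lineages.

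The mature populations were also set against CDP. In CD24 DC, 6 of 9 genes were called, beside 21.1% of all genes. Notch1 fell by 1.59 ± 0.17, 3.01-fold (adjusted p = 1.45e-05), and Adam10 fell by 1.09 ± 0.22, 2.14-fold (adjusted p = 0.00301). Hes1 was 1.88 ± 0.33 higher (adjusted p = 0.000943) and Notch4 1.76 ± 0.24 higher, 3.39-fold (adjusted p = 0.000116). Lfng was 1.36 ± 0.28 higher (adjusted p = 0.00312) and Notch2 0.68 ± 0.18 higher (adjusted p = 0.0172). In CD172a DC, 3 of 9 were called, beside 22.8% of all genes. There Notch1 fell by 1.59 ± 0.19 (adjusted p = 5.19e-05), Hes1 was 2.08 ± 0.37 higher (adjusted p = 0.00108), and Lfng was 1.52 ± 0.31 higher, 2.88-fold (adjusted p = 0.00308). Only the Notch2 difference among these 9 lost its call in any setting, without CDP array 1 (0.66, adjusted p = 0.0559), CDP array 3 (0.67, adjusted p = 0.0608) or the 5 arrays numbered 1 (0.60, adjusted p = 0.0787). The median of all genes was shifted by 0.116 in CD24 DC and 0.132 in CD172a DC, and by 0.03 and 0.02 after quantile normalization.

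Across lineages, 3 of 9 genes were called in CD24 DC against pre-CD4, beside 11.4% of all genes, and 3 of 9 in CD172a DC against pre-CD8, beside 9.41%. Notch4 was 1.71 ± 0.27 higher in CD24 DC than in pre-CD4, 3.27-fold (adjusted p = 0.000627), and kept its call in all 20 settings. Notch1 fell by 0.87 ± 0.19 there (adjusted p = 0.00679), a call lost without pre-CD4 array 1 (-0.79, adjusted p = 0.0947), and Hes1 was 1.59 higher, as given above. Hes1 was 2.23 ± 0.40 higher in CD172a DC than in pre-CD8 (adjusted p = 0.00304), also in all 20 settings. In the same comparison Rbpj fell by 0.93 ± 0.27 (adjusted p = 0.0448), with -0.40 from its other probe set (adjusted p = 0.461), and the call was lost in 15 of 21 settings (highest adjusted p 0.461), including without CD172a DC array 1 (-0.66, adjusted p = 0.351), pre-CD8 array 1 (-1.03, 0.137) or 2 (-0.83, 0.16), CD24 DC array 2 (0.0585), or any single CDP or pre-CD4 array (0.0595 to 0.0621). Notch2 fell by 0.89 ± 0.22 in CD172a DC against pre-CD8 (adjusted p = 0.0238), a call lost without CD172a DC array 1 (-0.73, adjusted p = 0.198) or pre-CD8 array 2 (-0.66, adjusted p = 0.157).

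The rest of the pathway was represented by 62 measured genes of a list of 66. Their median difference stayed between -0.04 and 0.08 in every comparison made here, with all-gene medians of -0.01 to 0.13. Against CDP, Maml3, a Mastermind coactivator, and Kat2a, an acetyltransferase, fell in both precursors. Maml3 fell by 1.29 ± 0.22 in pre-CD8 (adjusted p = 0.00375) and by 0.96 ± 0.22 in pre-CD4 (adjusted p = 0.0249). Kat2a fell by 0.79 ± 0.20 in pre-CD8 (adjusted p = 0.0344) and by 1.14 ± 0.20 in pre-CD4 (adjusted p = 0.00437). These 2 were the called genes of pre-CD8, with 0 higher (3.23% of 62, against 4.76% of all genes). In pre-CD4, 2 genes were called higher and 3 lower (8.06%, against 4.54% of all genes). Tle1 and Tle3, Groucho-type corepressors, rose by 1.67 ± 0.28 (adjusted p = 0.00401) and 0.88 ± 0.21 (adjusted p = 0.0321), and Dtx4, of the Deltex family, fell by 0.82 ± 0.21 (adjusted p = 0.0436). Each of these 7 calls was lost in at least 1 setting. Maml3 in pre-CD8 was lost without pre-CD8 array 2 (adjusted p = 0.075), Tle1 without pre-CD4 array 2 (0.0736), Kat2a in pre-CD4 without either pre-CD4 array (at most 0.0921), and Maml3 in pre-CD4 without either pre-CD4 array or CDP array 1 or 2 (at most 0.273). Kat2a in pre-CD8, Tle3 and Dtx4 were lost in 10, 8 and 14 of 20 settings, including without any single CDP array or any single array of the precursor concerned. Kat2a in pre-CD8 was also lost without CD24 DC array 2 or either pre-CD4 array, and Dtx4 without CD24 DC array 2 or any pre-CD8 or CD172a DC array.

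No listed gene was called between the precursors by limma (3 of 62 had an unadjusted p under 0.05). Between CD24 DC and CD172a DC, 3 were higher and 4 lower in CD24 DC (11.3% of 62, against 5.59% of all genes). Poglut1, which adds the first sugar of the Notch O-glucose chain, was 1.17 ± 0.23 higher (adjusted p = 0.00892), Aph1c, a gamma-secretase subunit, 1.02 ± 0.27 higher (adjusted p = 0.0449), and Dtx4 0.97 ± 0.21 higher (adjusted p = 0.0146). Dtx1, a Deltex ubiquitin ligase, fell by 1.63 ± 0.23 (adjusted p = 0.00068), Maml3 by 1.28 ± 0.22 (adjusted p = 0.00352) and Jag1, a Jagged ligand, by 1.26 ± 0.26 (adjusted p = 0.0112). Dtx1 and Maml3 kept their calls in all 20 settings. Poglut1 was lost without CD172a DC array 2 (adjusted p = 0.0919), Jag1 without CD172a DC array 1 and Dtx4 without either CD172a DC array, at most 0.245 and 0.145. Aph1c was lost in 11 of 20 settings (highest adjusted p 0.592), including without CD172a DC array 1, CD24 DC array 1 or 2, or any CDP or pre-CD4 array.

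Jag1 measured 6.29 and 6.07 in CD172a DC and 4.38, 4.96 and 5.42 in CD24 DC, against 3.79 to 4.28 in the 7 marrow arrays. Its population means, from 3.88 in CDP to 6.18 in CD172a DC, all lay inside the span of the genes of other tissues. The other 7 ligands of the list, among them Dll1 and Dll4, were not called in any of these comparisons. In CD172a DC against pre-CD4, Jag1 rose by 2.20 ± 0.29 (adjusted p = 0.000223), Dtx1 by 1.91 ± 0.25 (adjusted p = 0.000214) and Neurl3, of the Neuralized family, by 2.91 ± 0.32, 7.50-fold (adjusted p = 6.15e-05). With 3 listed genes higher and 5 lower, 12.9% of the 62 were called there, against 12.7% of all genes. The 5 that fell were led by Neurl1b, Tle5 and the deacetylase gene Hdac2, which fell by 1.42 ± 0.24 (adjusted p = 0.00161), 1.23 ± 0.26 (adjusted p = 0.00654) and 1.21 ± 0.30 (adjusted p = 0.017). The 3 rises and the fall of Neurl1b held in every setting. Tle5 was lost without CD172a DC array 2 or pre-CD4 array 1 (at most 0.123), and Hdac2 without CD172a DC array 1 or either pre-CD4 array (at most 0.329).

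In CD24 DC against pre-CD8, 4 listed genes were higher and 3 lower (11.3%, against 6.31% of all genes). Aph1c rose by 1.53 ± 0.27 (adjusted p = 0.00329), Poglut1 by 1.22 ± 0.23 (adjusted p = 0.0055) and Neurl3 by 1.18 ± 0.29 (adjusted p = 0.0279). Tle5 fell by 1.12 ± 0.24 (adjusted p = 0.0105), Neurl1b by 0.93 ± 0.22 (adjusted p = 0.022) and Cir1, a corepressor that binds RBPJ, by 0.73 ± 0.18 (adjusted p = 0.0296). Aph1c and Poglut1 were lost without pre-CD8 array 2 (adjusted p 0.0503 and 0.0831), Tle5 without pre-CD8 array 1, and Neurl1b, Neurl3 and Cir1 without either pre-CD8 array, with adjusted p of at most 0.272. Neurl1b was also lost without CD24 DC array 2, Neurl3 without CD24 DC array 1, and Cir1 without CD24 DC array 2 or 3 or CDP array 2 or 3. Against CDP, 7 listed genes were higher and 8 lower in CD24 DC (24.2%, near the 21.1% of all genes), and 6 higher and 12 lower in CD172a DC (29%, against 22.8% of all genes). Neurl3 was 2.07 ± 0.26 higher in CD24 DC (adjusted p = 6.99e-05) and 3.22 ± 0.29 higher in CD172a DC (adjusted p = 7.12e-06). Jag1 was 1.04 ± 0.23 higher in CD24 DC (adjusted p = 0.00593) and 2.30 ± 0.26 higher in CD172a DC (adjusted p = 4.27e-05). Aph1c led the rises of CD24 DC at 2.41 ± 0.24 (adjusted p = 1.11e-05), and Dtx1 rose by 1.94 ± 0.23 in CD172a DC (adjusted p = 5.29e-05). Among the falls, Maml3 (-1.99 ± 0.20, adjusted p = 1e-05), Hdac2 (-1.21 ± 0.24, adjusted p = 0.00283) and Kat2a (-0.94 ± 0.18, adjusted p = 0.00154) led in CD24 DC. In CD172a DC they were led by Hdac2 (4.01-fold lower, adjusted p = 0.000163), Hdac1 (-1.44 ± 0.25, adjusted p = 0.00104) and Dtx4 (-1.08 ± 0.21, adjusted p = 0.00229). Of these values against CDP, Dtx4 alone lost its call in a setting, without the 5 arrays numbered 1 (adjusted p = 0.0654).

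No listed gene passed the interaction test, with 8 of 62 at an unadjusted p under 0.05.

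**Figure D4:**
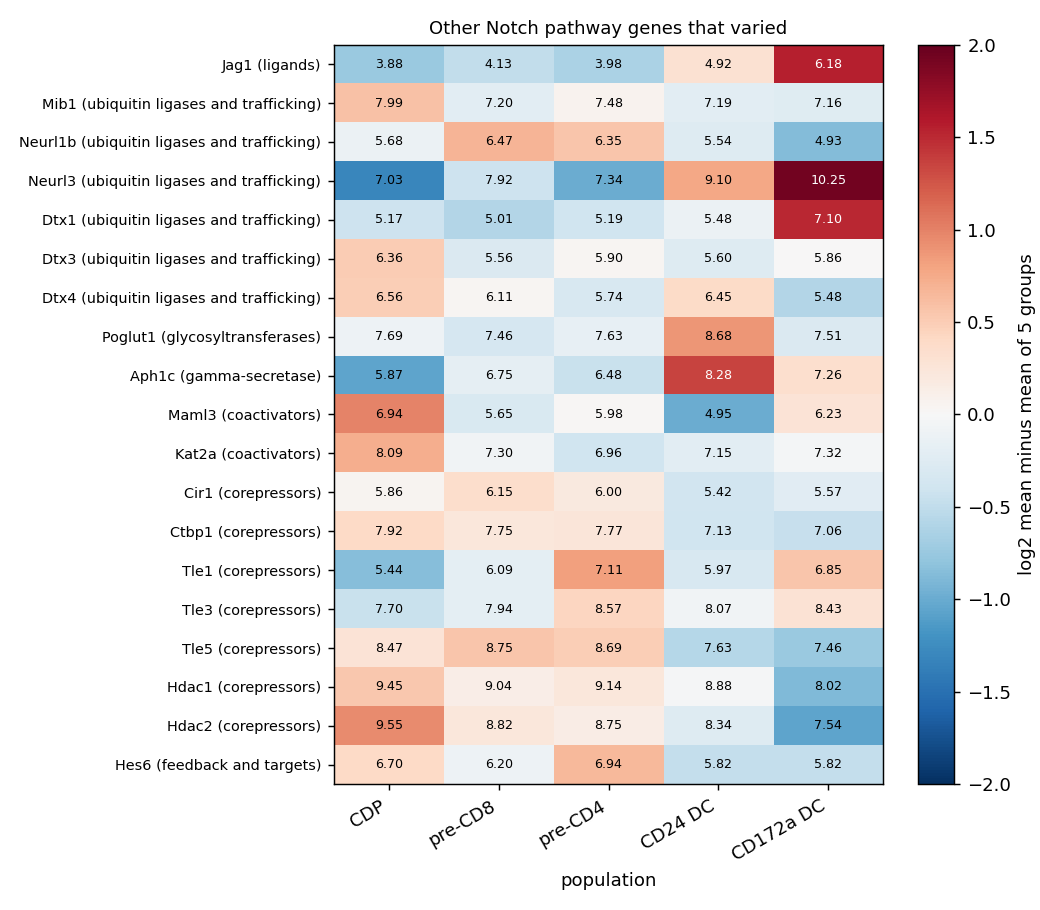
Rows are the 19 other pathway genes that passed the F test, with their role in brackets, and columns the 5 populations; the number in each cell is the mean log2 expression and the colour its difference from the mean of the 5 population means. Neurl3 ran from 7.03 in CDP to 10.25 in CD172a DC, and Jag1 and Dtx1 were highest in CD172a DC at 6.18 and 7.10. Genes are to be compared along a row and not down a column.

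Other targets of Notch were counted in the same way. Of 8 feedback and target genes (Nrarp, Hes5, Hes6, Hes7, Hey1, Hey2, Heyl and Ptcra), 1 was called higher and 1 lower in CD24 DC against CDP (25%, against 21.1% of all genes), and 0 and 1 in CD172a DC against CDP (12.5%, against 22.8%). The fall was that of Hes6 in each case, by 0.88, with an adjusted p of 0.027 in CD24 DC and 0.0435 in CD172a DC, and the rise was Hes7 by 0.59 (adjusted p = 0.047). These 3 calls were lost in 6 (Hes6 in CD24 DC), 11 (Hes6 in CD172a DC) and 14 (Hes7) of 20 settings, among them without any single CDP array. Hes6 also fell by 1.12 ± 0.32 in CD172a DC against pre-CD4 (adjusted p = 0.033) and by 1.13 ± 0.29 in CD24 DC against pre-CD4 (adjusted p = 0.0211), with calls lost in 7 and 4 of 20 settings. Without pre-CD4 array 1 both were lost, and the CD172a DC call also without either CD172a DC array or CDP array 3, the CD24 DC call also without CD24 DC array 2 (adjusted p at most 0.596 and 0.394). Hes6 and Hes7 were chosen for naming after their values were seen. No call was made for Hey1, Hes5 or Nrarp in any comparison.

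A further 3 genes known to depend on Notch2 in splenic CD172a DCs, Dtx1, Clec4a4 and Esam, were set beside the receptors. Clec4a4 (DCIR2, the 33D1 antigen) measured 7.86 and 8.47 in CD172a DC, against 2.62 to 3.49 in the 10 arrays of the other populations. It was 5.23 ± 0.24 lower in CD24 DC than in CD172a DC (adjusted p = 1.48e-07) and 5.42 ± 0.26 higher in CD172a DC than in pre-CD4 (adjusted p = 1.66e-07), and both held in every setting. Clec4a4 belongs to a family of near-identical genes, so its probes may also read a relative. Dtx1 measured 7.05 and 7.16 in CD172a DC, against 4.73 to 5.63 in the others, and its second probe set showed the same separation, with 6.38 and 6.98 against 3.43 to 4.95. Esam measured 5.46 and 5.53 in CD172a DC, 4.50 and 4.30 in pre-CD4, and 5.13, 5.61 and 5.64 in CD24 DC, which overlapped with CD172a DC. Its rise of 1.10 ± 0.22 in CD172a DC against pre-CD4 passed (adjusted p = 0.00546), except without the 5 arrays numbered 1 (adjusted p = 0.0583). Every population mean of Esam lay inside the span of the genes of other tissues. CD172a DC, where Dtx1 and Clec4a4 were highest, had a Notch2 level 0.75 lower than pre-CD4, a call lost in 12 of 20 settings. A link between the Notch2 level and these genes was not tested.

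**Figure D5:**
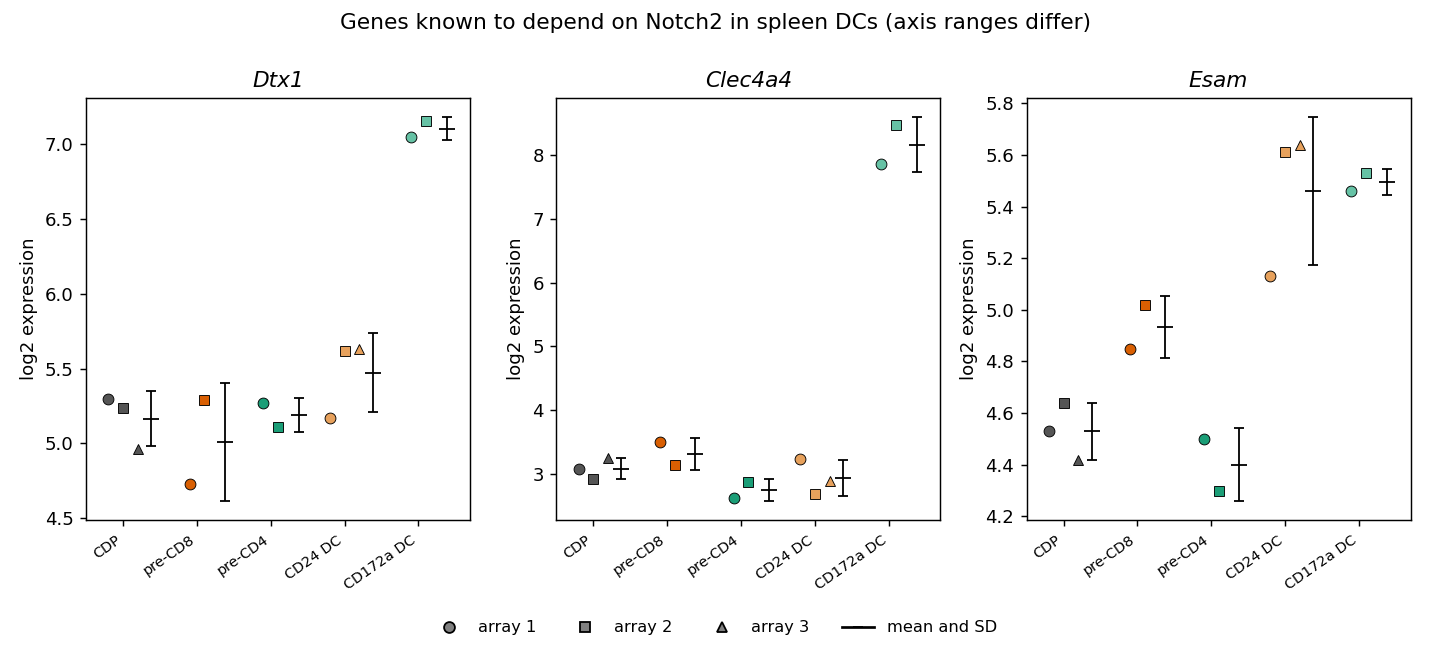
Points are arrays of the 5 populations (horizontal axis) and bars the mean and SD of log2 expression (vertical axis, with a range of its own in each panel) for Dtx1, Clec4a4 and Esam. Both CD172a DC arrays of Dtx1, at 7.05 and 7.16, and of Clec4a4, at 7.86 and 8.47, stood above every other array, whereas those of Esam lay among the CD24 DC arrays.

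The genes whose pattern over the 12 arrays was most like each varying member were found by the smallest root-mean-square difference of values centred on each gene's mean, among the other 5311 genes that passed the F test. For Notch1 they were Zik1, Obi1 and Zfp763, each 0.16 log2 units from it, where Notch1 itself had an SD of 0.65. For Notch2 (SD 0.48) they were Eps15, an endocytic adaptor, at 0.17, Nptn at 0.20 and the kinase gene Hipk2 at 0.21. Notch4 (SD 0.73) was nearest to Gramd2 and the semaphorin gene Sema4f, both at 0.22, and Fmo5 at 0.23. Lfng (SD 0.70) was nearest to Dpp4, a surface peptidase, at 0.22, Orm3 at 0.25 and Kdm7a, a histone demethylase, at 0.26. Adam10 (SD 0.45) had Paip2, Thoc1 and Fam98b at 0.14 to 0.16, and Rbpj (SD 0.40) had Eloa at 0.17 with Tapbp and 4931403G20Rik at 0.18. Hes1, which had the largest SD (1.03), was nearest to Nfkbid, a nuclear regulator of NF-kappaB, at 0.37, the death receptor gene Fas at 0.39 and Nod1, a sensor of bacterial peptidoglycan, at 0.41. The distances were not scaled to the SD of each gene, so they do not rank the genes by how closely their patterns are shared. These distances describe the same 12 arrays and share their population differences and scaling.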

How the data were processed

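The authors deposited log2 signals, 1 for each probe set on each of 12 arrays; the log2 scale was read from the deposited values, which ran from 0.84 to 13.09. How they were background-corrected and normalized is not given in the sources used here, and no further scaling was applied. RNA was amplified with a NuGEN Ovation Pico system, per the labels. Of 35145 probe sets, 23525 had 1 gene symbol in the platform annotation, 1810 several and 9810 none; those with several or none were left out. This left 22184 genes, each read from its brightest probe set (1082 had a choice). The 12 arrays entered 1 limma fit (version 3.58.1, R 4.3.3) with 5 group means, so that groups of 2 arrays share an estimate of spread (7 residual and 6.18 prior degrees of freedom). Tests were two-sided, with Benjamini-Hochberg adjustment across all genes within each comparison, with a threshold of 0.05, and intervals are 95%. The labels do not say whether arrays came from separate pools of mice, so p-values measure the spread between arrays, whose number limits the precision. The fit was tested on simulated data. Members and gene lists were chosen with earlier results of these data known. Named pathway genes are at most the 3 largest called differences in each direction. The 21 alternatives were quantile normalization, a filter on dim genes below the 40th percentile, every probe set, the mean of a gene's probe sets, the array number as a block, array weights, only the groups compared, each array left out and, added after seeing the data, leaving out the 5 arrays numbered 1 and the other Rbpj probe set.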

Additional observations from a re-analysis of the deposited data

Results flagged for a closer look

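Clec4a4, a gene known to depend on Notch2 in splenic CD172a DCs, passed the test of the lineage difference between stages. CD24 DC minus CD172a DC, set against pre-CD8 minus pre-CD4, was -5.79 ± 0.36 on the log2 scale (limma, adjusted p = 1.01e-05). The gene was 5.23 lower in CD24 DC than in CD172a DC and between 2.62 and 3.49 in every array of CD24 DC and the marrow populations, and the call held in all 19 settings that could be run for it.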

How the results depend on the processing

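Of the 26 called differences of the 9 genes, 10 kept their call in every setting and none changed direction: Notch1, Lfng and Hes1 in both mature populations against CDP, Adam10 and Notch4 in CD24 DC against CDP, Notch4 in CD24 DC against pre-CD4 and Hes1 in CD172a DC against pre-CD8. Of 521 alternative values, 85 lost the call, 53 of them among 312 with 1 array left out and 12 without the 5 arrays numbered 1. Array weights and the dim-gene filter cost 0 calls. The number of genes called changed as follows, and the cause was not tested. In pre-CD4 against CDP it was 2, and 1 with quantile normalization, every probe set, the array number as a replicate block, or without the 5 arrays numbered 1. In CD24 DC against CD172a DC it was 1, and 2 with quantile normalization, the block or array weights, and 0 with every probe set or without the arrays numbered 1. In CD24 DC against pre-CD8 it was 1, and 2 with quantile normalization or the dim-gene filter, 3 with array weights and 0 without the arrays numbered 1. In CD172a DC against pre-CD4 it was 4, and 2 with quantile normalization or every probe set and 1 without the arrays numbered 1. In CD172a DC against CDP it was 3, and 5 with quantile normalization or the block. In CD24 DC against pre-CD4 it was 3, and 5 with array weights and 1 without the arrays numbered 1 or with only the groups compared. In CD172a DC against pre-CD8 it was 3, and 1 with quantile normalization, without the arrays numbered 1 or with only the groups compared. With 1 array left out, the counts ran from 1 to 3 in pre-CD8 against CDP, 0 to 2 in pre-CD4 against CDP, 0 to 1 in CD24 DC against CD172a DC, 0 to 2 in CD24 DC against pre-CD8, 0 to 4 in CD172a DC against pre-CD4, 5 to 7 in CD24 DC against CDP, 3 to 4 in CD172a DC against CDP, 1 to 4 in CD24 DC against pre-CD4 and 1 to 3 in CD172a DC against pre-CD8, and the full order of levels stayed the same for 4 to 8 of the 9 genes. Uncalled Rbpj values changed sign: CD24 DC against pre-CD8 was 0.01 with the block and ran from -0.27 to 0.06 with 1 array left out (0.06 without CD24 DC replicate 3), CD172a DC against pre-CD4 was 0.18 with the other probe set, and the interaction was -0.05 with the mean of probe sets, -0.17 without the arrays numbered 1, -0.31 with the other probe set and -0.05 to 0.49 with 1 array left out (-0.05 without CD172a DC replicate 1).

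Counts over all genes moved by more than 1.5 times in some settings of every comparison, from 1057 to 502 without the arrays numbered 1 and 1629 with array weights in pre-CD8 against CDP, 1008 to between 298 and 2021 in pre-CD4 against CDP, 156 to between 34 and 202 in pre-CD8 against pre-CD4, 1239 to between 508 and 2349 in CD24 DC against CD172a DC, 1399 to between 571 and 2556 in CD24 DC against pre-CD8, 2821 to between 996 and 3752 in CD172a DC against pre-CD4, 229 to between 84 and 481 in the interaction, 4690 to between 3412 and 9890 in CD24 DC against CDP, 5065 to between 2809 and 6673 in CD172a DC against CDP, 2524 to between 1311 and 5115 in CD24 DC against pre-CD4 and 2088 to between 736 and 2665 in CD172a DC against pre-CD8. Arrays with the same number deviated together over the 13 pairs outside CD172a DC (r 0.102 to 0.421) and not over the 8 pairs with it (r -0.162 to 0.024). In a population of 2 arrays the deviations mirror each other, so these pairs are not independent. Pre-CD4 with pre-CD8, for example, gave 0.414 for both numbers. Pairs of unlike number were not compared. The numbers may thus mark shared variation in 4 of the 5 populations without pairing all of them. What they stand for is not stated in the labels. The block cost 1 of the 26 calls, Notch1 in pre-CD4 against CDP (-0.69, adjusted p = 0.0702), and added 5: Rbpj in CD24 DC against CD172a DC (0.94, adjusted p = 0.018) and against CDP (0.61, 0.0245), Notch3 (0.91, 0.0175) and Notch4 (0.80, 0.0352) in CD172a DC against CDP, and Lfng in CD24 DC against pre-CD4 (1.03, 0.00339). The depth of an array cannot be counted, and values near those of other-tissue genes limit Notch3, Maml1 and Hes1, Notch1 in pre-CD8 and both mature populations, and Notch4 outside CD24 DC. Among the other genes named with a call, they limit Jag1, Neurl1b, Dtx4, Cir1, Hes7 and Esam in every population.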
